A study of Mus musculus with 21 samples.

Results

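A set of 10 genes of squamous differentiation, of 49652 gene IDs counted, was followed across 21 mouse mammary tumors. They were taken as listed symbols: the transcription factor gene *Trp63*, the desmosome genes *Dsg3*, *Dsc3* and *Pkp1*, the cornified envelope genes *Ivl*, *Sprr1a*, *Sprr1b* and *Sprr3*, and the suprabasal genes *Sbsn* and *Krtdap*. Of the 10 symbols 9 were in the gene names deposited, and *Sprr3* was matched by its Ensembl ID. Levels are CPM, read counts from total RNA scaled to library size with TMM, a factor that corrects for library composition.

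The study asked whether extra wildtype RhoC, a small GTPase, changes tumor formation driven by activated Neu. All mice were virgin females carrying FloxNeoNeuNT, an activated Neu cDNA at the *Erbb2* locus behind a loxP-flanked stop, and MMTV-CreNLST, a mammary Cre that, by the study's account, seems to act in fewer cells or more weakly than related lines. The RhoC cohort (12 tumors, 8 mice) had the genotype R26(RhoC/+);FloxNeoNeuNT;MMTV-CreNLST, in which wildtype mouse RhoC and eGFP are expressed from Rosa26 after Cre. The control cohort (9 tumors, 9 mice) held 7 tumors of Gata4(loxP/+);FloxNeoNeuNT;MMTV-CreNLST mice and 2 of FloxNeoNeuNT;MMTV-CreNLST mice (N-15 and N-17). These genotypes were pooled, as the study did. Mouse strain and age at collection are not given in the labels, and tumors were taken at humane endpoint. Histology came from the study's list of tumors and not from the sample labels. It names 3 squamous cell carcinomas (SCC), all in the RhoC cohort: R-6 from mouse N9255, and R-13 and R-14 from mouse P497. The label of R-18 gives no mouse, and it was counted as a separate animal, with an entry of its own in the tumor list. The label of R-21 gives the mouse that the tumor list gives for another tumor, R-20, which was not analysed here, so the animal behind R-21 is uncertain. Total counts were 47552423 to 100741339 in control tumors and 47309780 to 85326903 in RhoC tumors. *Rhoc* counts, which cannot tell the transgene from the endogenous gene, overlapped between cohorts, at 25.98 to 172 CPM in controls and 22.8 to 148 CPM in RhoC tumors.

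Stratified squamous epithelium renews from a basal layer that depends on p63, the product of *Trp63*. As its cells move up they build more desmosomes, junctions in which cadherins of the desmoglein and desmocollin families are tied to keratin through plakophilins and desmoplakin. They then assemble the cornified envelope, a shell of involucrin, small proline-rich proteins and others cross-linked under the plasma membrane by transglutaminases. Normal mammary ducts express p63 in basal myoepithelial cells but do not cornify.

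The promoters of 5 members are shown because 80.6% (Krtdap) to 100% (Sprr3) of their CPM summed over tumors lay in the 3 SCC tumors. Each line gives the 150 bases before the RefSeq start (GRCm38.p6, 5′ to 3′ on the gene's strand), with matches to TGANTCA, the AP-1 motif, in capitals. The windows are chr3:92573736-92573885 (minus strand) for *Ivl*, chr3:92485882-92486031 (minus strand) for *Sprr1a*, chr3:92458721-92458870 (minus strand) for *Sprr3*, chr3:92438780-92438929 (minus strand) for *Sprr1b* and chr7:30787755-30787904 (plus strand) for *Krtdap*.
Ivl: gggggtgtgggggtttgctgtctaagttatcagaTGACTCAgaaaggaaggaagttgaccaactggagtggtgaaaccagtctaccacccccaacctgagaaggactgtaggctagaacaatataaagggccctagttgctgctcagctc
Sprr1a: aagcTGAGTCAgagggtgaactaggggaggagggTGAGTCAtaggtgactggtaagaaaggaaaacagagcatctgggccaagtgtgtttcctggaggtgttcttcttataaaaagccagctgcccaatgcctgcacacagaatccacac
Sprr1b: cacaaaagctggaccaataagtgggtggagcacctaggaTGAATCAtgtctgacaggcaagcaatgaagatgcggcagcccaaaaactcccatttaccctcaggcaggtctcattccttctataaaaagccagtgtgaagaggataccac
Krtdap: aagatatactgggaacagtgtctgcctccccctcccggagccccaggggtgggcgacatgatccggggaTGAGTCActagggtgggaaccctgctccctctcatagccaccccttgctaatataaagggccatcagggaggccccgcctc
Sprr3: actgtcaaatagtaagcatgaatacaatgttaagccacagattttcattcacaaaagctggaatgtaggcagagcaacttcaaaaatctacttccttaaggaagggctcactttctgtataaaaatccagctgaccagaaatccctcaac
Over the whole 300-base window (250 bases before the start and 50 after), 5 of the 6 members with a promoter in the table held TGANTCA on either strand: *Ivl*, *Sprr1a*, *Sprr1b*, *Krtdap* and *Sbsn*. *Sprr3* had no match. Of all 32851 promoters of that length, 7.81% held the motif. The motif of grainyhead-like factors, AACCNGTT on either strand, was in none of the 6 members and in 2.09% of all promoters. A match describes the letters and not binding. *Trp63*, *Pkp1*, *Dsg3* and *Dsc3* were not in the promoter table.

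**Figure D1:**
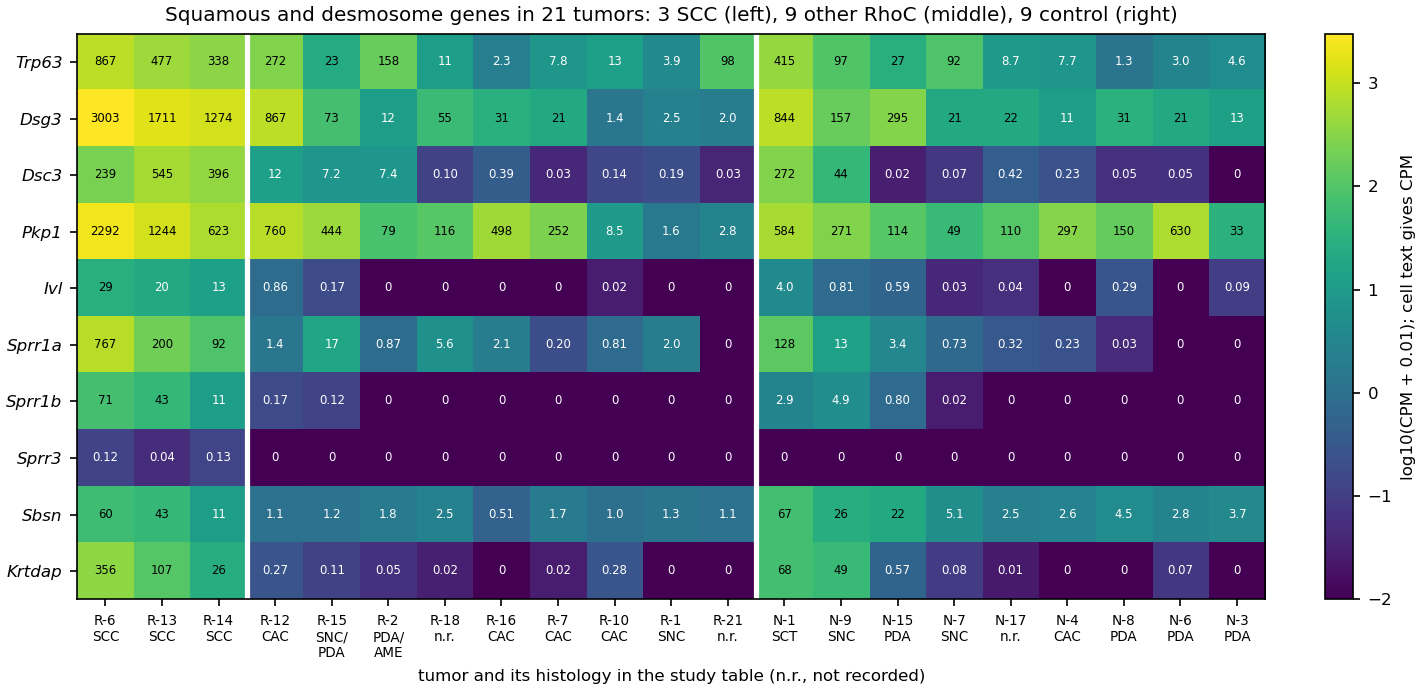
Each cell gives the CPM of 1 gene (rows) in 1 tumor (columns, with histology), colored on a log10 scale. All 10 genes are above 0 in the 3 SCC tumors, and N-1 is the control with the most genes at high levels. R-12 is high in Trp63, Dsg3 and Pkp1 but not in Sbsn or Krtdap.

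*Trp63* (chr16:25683763-25892102, GRCm38.p6 as for all positions here), the master regulator of the basal layer, was detected in every tumor. It stood at 867 CPM in R-6, 477 in R-13 and 338 in R-14. The 9 controls ranged from 1.26 to 415 CPM with a median of 8.69, and the 9 RhoC tumors other than SCC from 2.33 to 272 with a median of 12.5. The groups overlapped in 1 tumor: N-1, a spindle cell tumor (SCT), was above R-14. Of the 18 tumors other than SCC, 6 exceeded 50 CPM: N-1, N-7, N-9, R-2, R-12 and R-21.

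*Dsg3* (chr18:20510274-20547459) encodes desmoglein 3, the desmosomal cadherin of basal and lower suprabasal keratinocytes. Its level was 3003 CPM in R-6, 1711 in R-13 and 1274 in R-14. Controls ranged from 11.2 to 844 CPM (median 21.7), and RhoC tumors other than SCC from 1.42 to 867 (median 20.98). No other tumor reached the lowest SCC, and the next were R-12 (867 CPM) and N-1 (844 CPM).

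*Dsc3* (chr18:19960930-20002351) encodes its partner cadherin, desmocollin 3. It was 239 CPM in R-6, 545 in R-13 and 396 in R-14. Controls ranged from 0 to 272 CPM (median 0.0667) and RhoC tumors other than SCC from 0.0296 to 12.4 (median 0.193). Thus *Dsc3* was near 0 in most tumors, above 1 CPM in 5 of the 18 others, and in N-1 (272 CPM) above R-6. It was the 1 member whose highest SCC was R-13 rather than R-6 or R-14.

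*Pkp1* (chr1:135871395-135919207) encodes plakophilin 1, the desmosomal plaque protein of suprabasal cells. It was 2292 CPM in R-6, 1244 in R-13 and 623 in R-14. Controls ranged from 33.2 to 630 CPM (median 150) and RhoC tumors other than SCC from 1.62 to 760 (median 116). *Pkp1* was the least restricted of the desmosome members: 12 of the 18 other tumors exceeded 100 CPM, and N-6, a poorly differentiated adenocarcinoma (PDA) at 630 CPM, and R-12, a complex adenocarcinoma (CAC) at 760 CPM, were above R-14.

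*Ivl* (chr3:92570902-92573735) encodes involucrin, an early scaffold of the cornified envelope. It was 29.1 CPM in R-6, 19.8 in R-13 and 12.6 in R-14. Controls ranged from 0 to 3.99 CPM (median 0.0869) and RhoC tumors other than SCC from 0 to 0.865 (median 0), with no reads in 8 of the 18. Every SCC was above every other tumor, and N-1 was the only other tumor above 1 CPM.

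*Sprr1a* (chr3:92483952-92485895) and *Sprr1b* (chr3:92436809-92438789) encode small proline-rich proteins that cross-bridge the envelope. *Sprr1a* was 767 CPM in R-6, 200 in R-13 and 91.8 in R-14, against 0 to 128 CPM in controls (median 0.320) and 0 to 17.04 in RhoC tumors other than SCC (median 1.37). N-1 (128 CPM) lay between R-13 and R-14. *Sprr1b* was 71.4 CPM in R-6, 43.5 in R-13 and 10.96 in R-14, and at most 4.90 CPM (N-9) elsewhere, with no reads in 12 of the 18 others. *Sprr3* (chr3:92456502-92458720), another gene of the family, had 6 reads in R-6, 2 in R-13 and 8 in R-14 and 0 in all 18 others, where 0 allows up to 3 reads (0.0298 to 0.0634 CPM, counting error only). No 100-base stretch of the longest *Sprr1a*, *Sprr1b* or *Sprr3* transcript occurred in a transcript of another gene, so reads could be placed on each.

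*Sbsn* (chr7:30751471-30756134) and *Krtdap* (chr7:30787905-30791097) are neighboring genes for secreted proteins of suprabasal keratinocytes. *Krtdap* was 356 CPM in R-6, 107 in R-13 and 25.6 in R-14. Elsewhere only N-1 (67.9 CPM) and N-9 (48.6 CPM), a solid nodular carcinoma (SNC), exceeded 1 CPM, and both were above R-14. *Sbsn* was 59.9 CPM in R-6, 43.5 in R-13 and 11.1 in R-14. It was highest of all in N-1 (66.8 CPM), and N-9 (26.2 CPM) and N-15 (21.5 CPM) were also above R-14. *Sbsn* shares 7.67% of its 100-base windows with *Tmem147os*, a noncoding transcript on the same strand, so reads there may have been discarded. *Tmem147os* stood at 1.49 to 5.73 CPM in controls, 1.66 to 6.06 in RhoC tumors other than SCC and 1.52 to 3.33 in SCC.

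**Figure D2:**
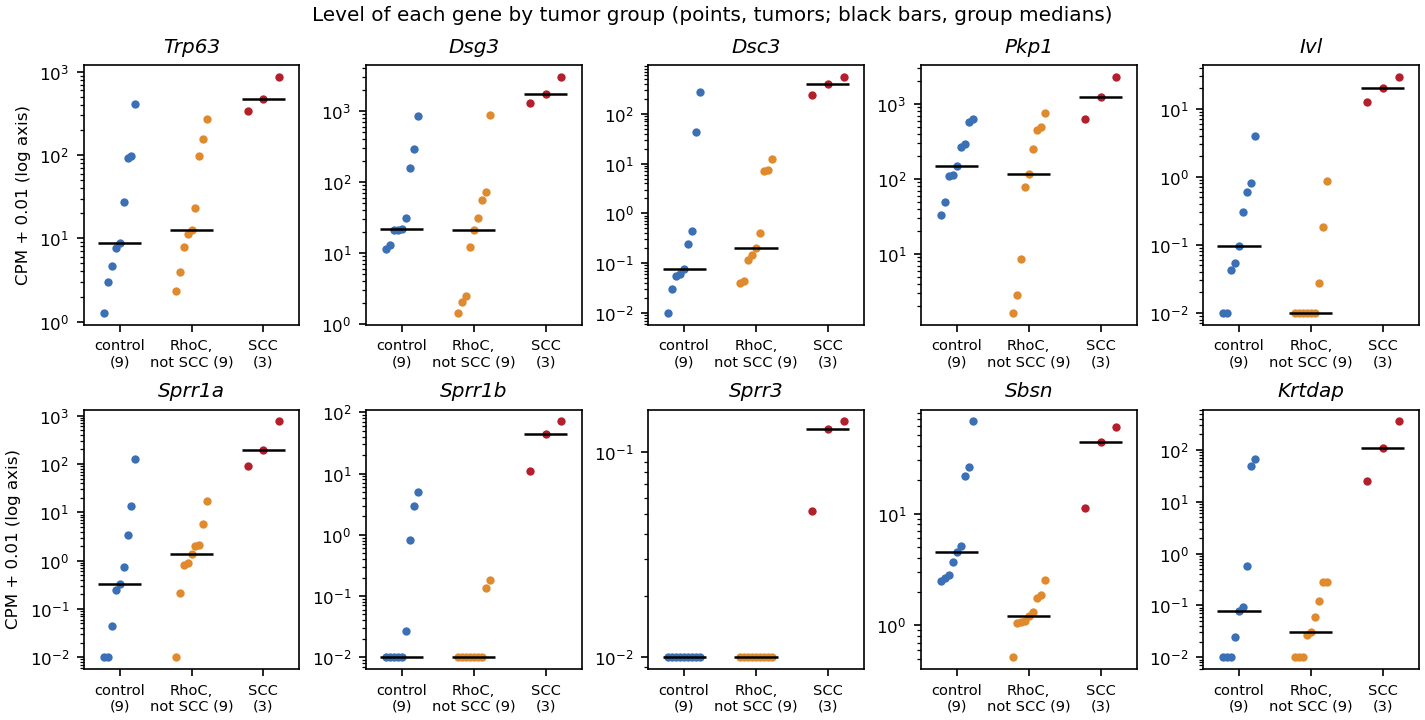
Points are tumors (9 control, 9 RhoC other than SCC, 3 SCC), black bars are group medians and the vertical axes are CPM + 0.01 on a log scale. The SCC points lie above all others for Dsg3, Ivl, Sprr1b and Sprr3, and 1 to 3 other tumors reach into the SCC range for the rest. For Sprr3 the SCC points are 2 to 8 reads, and the 2 reads of R-13 are not separated from 0.

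Tumors with SCC histology were first set against the 18 others. *Ivl*, *Sprr1a* and *Dsg3* rose, by 5.74 ± 1.28, 5.18 ± 1.45 and 3.86 ± 1.14 on the log2 scale of counts (± SE). Their adjusted p were 0.0085, 0.030 and 0.040 (edgeR's quasi-likelihood test, Benjamini-Hochberg over 19315 genes). *Dsc3* (4.36 ± 1.74, adjusted p = 0.12), *Trp63* (3.02 ± 1.08, adjusted p = 0.082), *Pkp1* (2.504 ± 0.92, adjusted p = 0.089) and *Sbsn* (2.22 ± 1.001, adjusted p = 0.16) did not pass at 0.05 in the same edgeR fit. Thus 3 of the 7 members that met the expression filter were called higher, where 5.23% of all tested genes were called higher and 2.9% lower. *Ivl* met the filter only with all 3 SCC tumors in the fit, so its test hung on their reads, and its call is not read against that share. It also missed the filter when R-12 or R-15 was left out. Of the 6 members that met the filter also without the SCC tumors 2 were called, where 5.04% of all such genes were called higher and 2.95% lower. The filter asked for counts in about as many tumors as the smaller cohort holds, and *Sprr1b*, *Sprr3* and *Krtdap* did not meet it.

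Single values were also compared by an exact permutation test, 2-sided, of mean log2 CPM over every way to choose 3 of 21 tumors. The exact p was 0.00075, the smallest possible, for *Ivl*, *Sprr1b* and *Dsg3*. It was 0.0015 for *Trp63*, *Sprr1a* and *Dsc3*, 0.0030 for *Krtdap*, 0.0090 for *Sbsn* and 0.030 for *Pkp1*, unadjusted. For *Sprr3*, at 0 in all 18 others, and *Sprr1b*, at 0 in 12 of them, such a comparison is one with a count of 0, and no support is taken from it. None is taken either for *Ivl*, at 0 in 8 of the 18, or *Krtdap*, at 0 in 6. *Ivl* met the filter only with the SCC tumors, and *Krtdap* did not meet it. Among the 6 members that met the filter also without the SCC tumors, every SCC was above every other tumor for 1 (Dsg3), a pattern held by 2.1% of all such genes (2.2% of all tested genes). Without N-1 it was 4 of the 6 (also *Trp63*, *Sprr1a* and *Dsc3*), against 2.4% of such genes (2.54% of all tested genes). N-1 was the 1 other tumor above the lowest SCC for *Trp63*, *Sprr1a* and *Dsc3*. Leaving it out therefore fixed that rise, and no support is taken from it. R-13 and R-14 share a mouse, so these p-values treat as separate samples tumors that may not be independent.

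Calls in the edgeR fit changed with single tumors. Without N-1, 5 of these 6 were called higher, all but *Pkp1*, and *Ivl* as well, at a background of 5.38%. Without R-6 or without R-13 none of the 6 then tested was called (Ivl no longer met the filter). The share of all genes called higher was then 1.02% without R-6 and 1.9% without R-13. Their log2 differences were still 1.73 to 4.62 without R-6 and 2.11 to 5.46 without R-13. With the tumors of mouse P497 summed by histology none of 6 was called, at a background of 2.58%. Directions did not turn in any of these fits. Within the RhoC cohort alone 3 of the 6 were called, *Sprr1a*, *Dsc3* and *Sbsn*, and *Ivl* as well, at a background of 3.91% called higher.

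The SCC tumors could also be compared with other tumors of the same mice. In mouse N9255, R-6 was above R-7, a CAC, for all 10 members: *Trp63* was 867 against 7.81 CPM, *Dsg3* 3003 against 20.98 and *Sprr1a* 767 against 0.202. In mouse P497, both R-13 and R-14 were above both R-15 (SNC or PDA) and R-16 (CAC) for 9 members. *Sprr3* had 2 reads in R-13 and 0 in R-15 and R-16, which does not separate them. The share of all genes with such an order was not computed, so these counts of members are a description and no support is taken from them. Mean *Dsg3* was 1492 CPM in the SCC pair and 51.6 in the other pair, and mean *Dsc3* 471 against 3.81 CPM. *Pkp1* differed least there, at 933 against 471 CPM. With mouse as a block in the edgeR fit, *Dsg3* (adjusted p = 0.040) and *Sbsn* (0.041) were called of the 6, and *Ivl* (0.048) as well, at a background of 1.36% called higher. *Sprr1a* was not called there (5.45 ± 1.92, adjusted p = 0.16, edgeR).

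Levels of different genes can be set side by side only per transcript length, and the authors' FPKM (fragments per kilobase of transcript, scaled to depth) serve for that. In the SCC tumors *Sprr1a* (444 ± 458 FPKM, SD, n = 3), *Krtdap* (352 ± 373), *Pkp1* (301 ± 185) and *Dsg3* (289 ± 132) had the highest mean levels. These 4 did not differ beyond their spread. *Dsc3* (73.4 ± 28.9 FPKM), *Trp63* (67.6 ± 33.5) and *Sprr1b* (51.2 ± 37.1) followed, then *Sbsn* (16.9 ± 11.1) and *Ivl* (10.8 ± 4.43). In the 18 others the median FPKM was highest for *Pkp1* (28.4), then *Dsg3* (3.01), and under 2 for the rest. *Sprr3* is not in the authors' FPKM table.

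The design's main contrast is RhoC against control. None of the 7 tested members passed, where 0.0932% of all genes were called higher and 0.129% lower in this comparison, and none had an unadjusted p under 0.05. DESeq2, which called 6.24% of all genes in either direction, also called 0 of the 7. The log2 differences in the edgeR fit were 3.005 ± 1.68 for *Ivl* (adjusted p = 0.31), 2.49 ± 1.72 for *Sprr1a* (0.42), 1.90 ± 1.27 for *Dsg3* (0.40), 1.52 ± 1.83 for *Dsc3* (0.66), 1.37 ± 1.09 for *Trp63* (0.49), 1.08 ± 0.90 for *Pkp1* (0.50) and -0.51 ± 0.91 for *Sbsn* (0.77). The exact permutation p over all labelings of 12 and 9 tumors lay between 0.14 and 0.88 for the 10 members. Mean CPM was higher in RhoC tumors for 9 of the 10, and lower for *Sbsn* (10.6 ± 19.7 against 15.1 ± 21.3 CPM, SD). Without N-1 all 7 log2 differences were positive, from 0.29 for *Sbsn* to 5.33 for *Sprr1a*, and none passed. Without R-6 they were lower, at 0.85 for *Sprr1a* and -1.31 for *Sbsn*. Voom with mouse as a random effect gave -0.90 for *Ivl*, -0.35 for *Dsg3* and -0.88 for *Pkp1*. The spread was as large as the means: *Dsg3* was 588 ± 962 CPM in the 12 RhoC tumors and 157 ± 275 in the 9 controls.

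Leaving out the 3 SCC tumors changed the sign of 5 of these differences, and the new signs rested in part on N-1. Those of *Pkp1* and *Trp63* moved to near 0 (-0.05 ± 0.88 and -0.16 ± 1.06). Mean CPM was then higher in RhoC tumors for 0 of the 10 members, and all 6 members that could be fitted had a negative log2 difference, from -0.05 for *Pkp1* to -3.50 for *Dsc3*. Of these, *Sbsn* alone passed, and it fell by 3.47 ± 0.67 on the log2 scale (adjusted p = 0.048, edgeR), where 0.0788% of genes were called lower. This contrast takes tumors of squamous histology, in which *Sbsn* was high, out of the RhoC cohort only, and keeps N-1 among the controls. It is therefore given as a description of these tumors, and no cohort difference is read from it. For *Sbsn* the 9 RhoC tumors lay between 0.509 and 2.51 CPM, and 8 of the 9 controls were above all of them; the exception was N-17, at 2.47 CPM. Without N-1 and the SCC tumors the differences were positive for 4 of the 6, *Trp63* (1.11), *Dsg3* (0.73), *Sprr1a* (0.56) and *Pkp1* (0.22), and negative for *Dsc3* (-0.85) and *Sbsn*, and none passed. For *Sbsn* that edgeR estimate was -2.66 ± 0.53 with an adjusted p of 0.094. Without the SCC tumors the sign for *Trp63*, *Sprr1a* and *Dsc3* depended on the scale, since means of log2 CPM were higher in the RhoC tumors (by 0.34, 0.77 and 0.22) while the fits gave negative values.

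**Figure D3:**
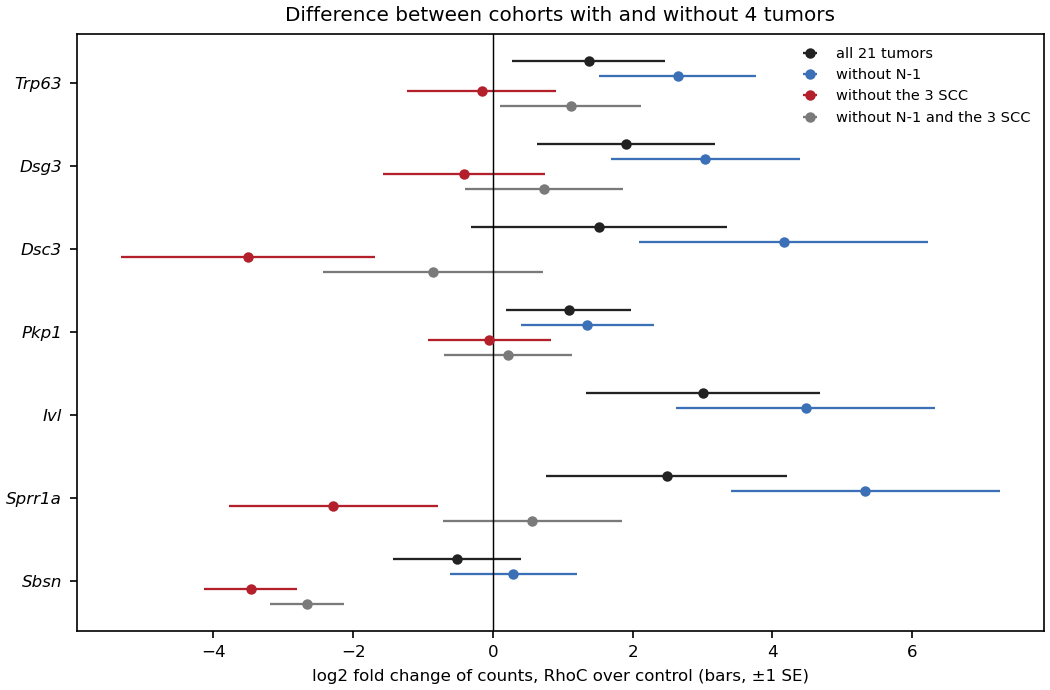
Points are edgeR log2 fold changes of counts, RhoC over control, with bars of 1 SE, for the 7 members that met the filter, fitted with all 21 tumors and without N-1, the 3 SCC tumors or both. Estimates lie to the right without N-1 and to the left without the SCC tumors. Ivl could not be fitted without the SCC tumors because it no longer met the filter.

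Outside SCC, the controls N-1 and N-9 and the RhoC tumor R-12 had high levels of different members. N-1 ranked between 1 (Sbsn) and 6 (Pkp1) of 21 tumors for each of the 9 members it expressed, and had no *Sprr3* reads. N-9 had rank 4 for *Krtdap*, *Sbsn* and *Sprr1b*, 5 for *Dsc3* and 10 for *Pkp1*. R-12 had rank 3 for *Pkp1*, 4 for *Dsg3* and 5 for *Trp63* and *Ivl*, yet 19 for *Sbsn* (1.07 CPM), with 0.271 CPM of *Krtdap* and 1.37 CPM of *Sprr1a*. R-2 (PDA and adenomyoepithelioma) and R-21 (histology not recorded) had 158 and 98.0 CPM of *Trp63* with 12.01 and 2.02 CPM of *Dsg3*. In bulk RNA, a larger share of squamous cells and more RNA per cell cannot be told apart.

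**Figure D4:**
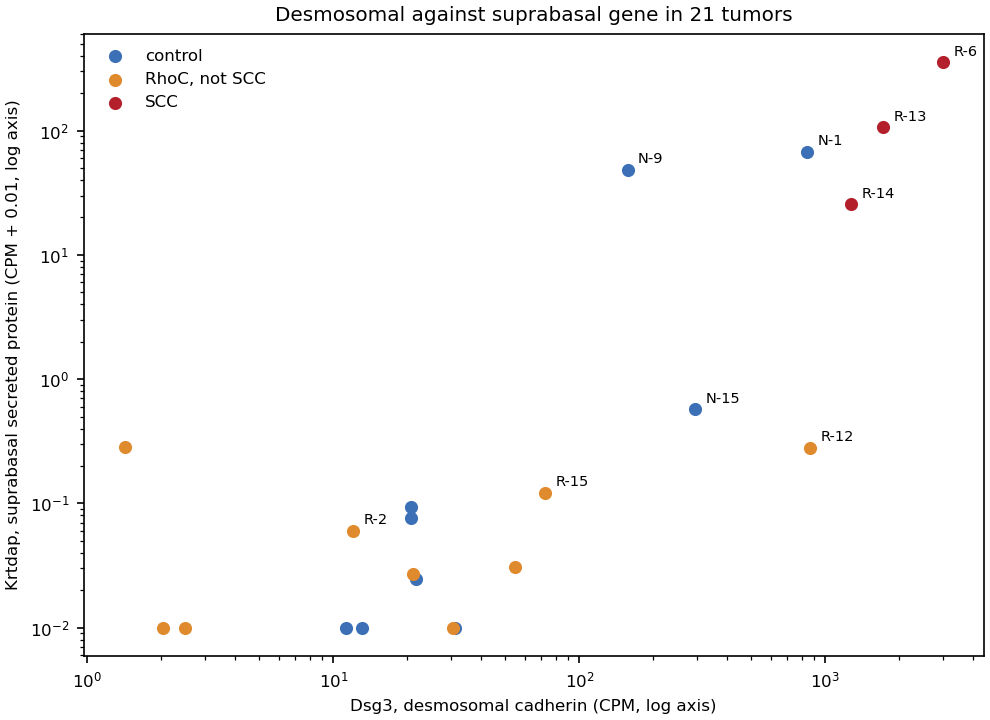
Each point is a tumor, with Dsg3 CPM on the horizontal and Krtdap CPM + 0.01 on the vertical log axis. N-1 and R-12 have nearly the same Dsg3 level (844 and 867 CPM) but 67.9 and 0.271 CPM of Krtdap, and N-9 has more Krtdap than R-14 (48.6 against 25.6 CPM) with less Dsg3 (157 against 1274 CPM).

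Further genes of the same structures were read from 4 lists, with 60 of 105 genes tested. In the SCC comparison 23 were called higher and 1 lower. Of these 60 genes 9 met the filter only through the SCC tumors, 5 of the 23 among them: *Csta1*, *Aloxe3*, *Klk13*, *Pitx1* and *Sox15*. Of the other 51, 18 were called higher and 1 lower, against 5.04% and 2.95% of all such genes. In the cohort comparison the edgeR fit called none of the 60. DESeq2 called 4, a share near the 6.24% it called of all genes. Without R-6 the SCC calls in either direction were 3 and without R-13 they were 11, where 1.09% and 2.02% of all genes were called in either direction.

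Of 11 other desmosome genes tested, 4 rose in SCC: *Pkp3* (plakophilin 3, 1.998 ± 0.34, adjusted p = 0.00081, edgeR), *Perp* (a p63 target in desmosomes, 3.09 ± 0.54, adjusted p = 0.0011), *Dsc2* (2.06 ± 0.42, adjusted p = 0.0050) and *Dsp* (desmoplakin, 2.31 ± 0.57, adjusted p = 0.016). The median log2 difference of the list was 0.67, against -0.15 over all tested genes. All 11 met the filter without the SCC tumors, and 5.04% of all such genes were called higher. *Perp* was 2810 CPM in R-6, 3042 in R-13 and 1285 in R-14, above every other tumor. *Dsg2*, the desmoglein of simple epithelia, stood at 176 ± 65.4 CPM in SCC and 374 ± 168 elsewhere and did not pass (-1.09 ± 0.40, adjusted p = 0.087). *Jup*, plakoglobin, was far higher in 3 controls than in SCC: 14033 CPM in N-1, 8992 in N-7 and 8408 in N-9, against 759 to 3849 in SCC, values singled out after they were seen. *Jup* (chr11:100368958-100397763) lies 1.93 Mb from *Erbb2*. In N-9 the 25 other tested genes within 0.5 Mb of *Jup* stood at a median of 12.8 times their usual level (the median of the 18 tumors other than these 3), while in N-1 and N-7 that ratio was 1.13 and 1.39.

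Only 9 of 47 other cornified envelope genes were tested, and 5 rose in SCC: *Evpl* (envoplakin, 4.12 ± 0.64, adjusted p = 0.00031, edgeR), *Cstb* and *Csta1* (cystatins, 1.99 ± 0.33 and 5.28 ± 1.24), *Ppl* (periplakin, 1.80 ± 0.43) and *Tgm1* (transglutaminase 1, 2.55 ± 0.70). The list median was 2.26. *Csta1* met the filter only through the SCC tumors. Of the 6 genes that met it without them 4 rose, against 5.04% of all such genes. R-6 led: its *Evpl* was 886 CPM, against 112 in R-13 and 56.1 in R-14, and N-1 (106 CPM) was above R-14.

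Among 20 tested epidermal barrier enzymes and inhibitors 6 rose, with a list median of 2.70. The 5 with the smallest p were *Lypd3*, a membrane protein of suprabasal cells (3.75 ± 0.69, adjusted p = 0.0018, edgeR), *Cyp4f39* and *Cers3*, which make ultra-long acylceramides (5.38 ± 1.35 and 2.95 ± 0.75), *Klk13*, a kallikrein protease (5.57 ± 1.42), and *Aloxe3*, an epidermal lipoxygenase (2.45 ± 0.67). The last was at only 1.58 ± 0.72 CPM in SCC. *Klk13* and *Aloxe3* met the filter only through the SCC tumors. Of the 17 genes that met it without them 4 rose, against 5.04% of all such genes.

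Of 20 tested squamous transcription factors 8 rose and 1 fell, with a list median of 1.48, and of 0.82 over the 17 that met the filter without the SCC tumors. Of those 17, 6 rose and 1 fell, against 5.04% and 2.95% of all such genes. Among those with the smallest p were *Pitx1* (6.94 ± 1.39, adjusted p = 0.0041, edgeR), a homeobox gene of hindlimb development, *Hopx* (3.57 ± 0.76, adjusted p = 0.0063) and *Prdm1* (1.67 ± 0.37, adjusted p = 0.0085). *Tfap2c*, an AP-2 factor of both epidermis and luminal mammary cells, fell by 1.94 ± 0.41 (adjusted p = 0.0060). *Hopx* was 48.7 CPM in R-6, 8.94 in R-13 and 1.91 in R-14, and R-14 was below N-1 (10.5 CPM), R-2, R-1 and N-17. *Pitx1* was 36.4 CPM in R-6, 40.3 in R-13 and 122 in R-14 and at most 4.36 CPM elsewhere, so here R-14 was the highest SCC. *Pitx1* met the filter only through the SCC tumors, so no support is taken from its call.

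**Figure D5:**
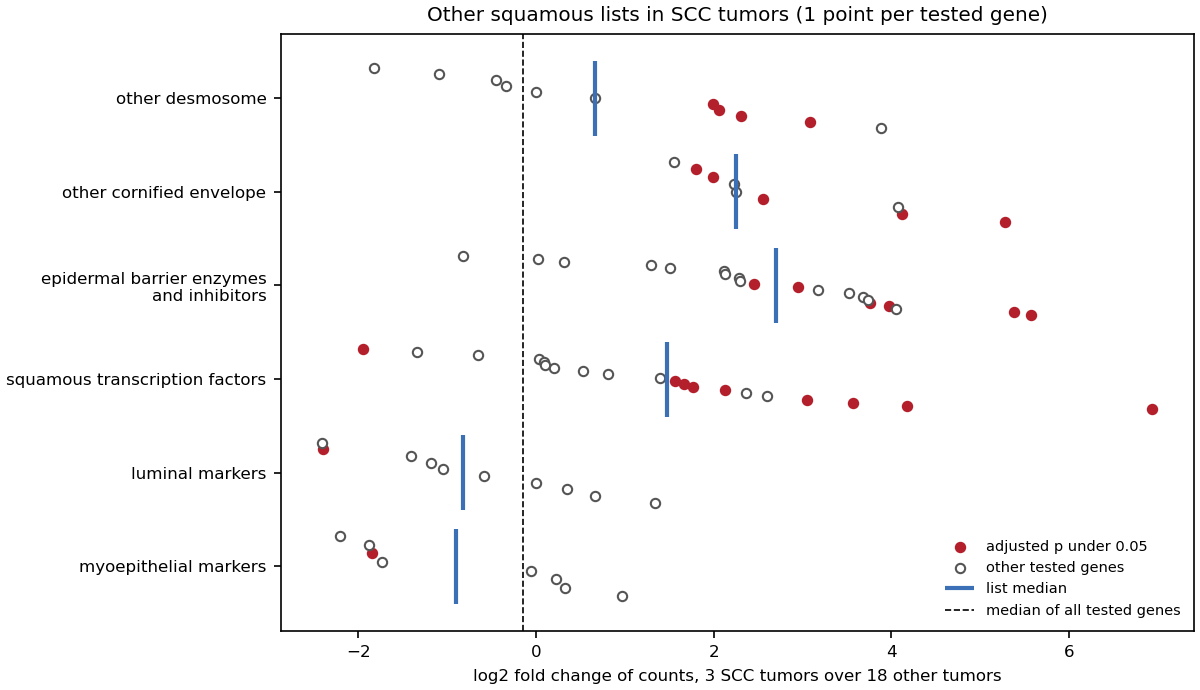
Each point is a tested gene placed by its log2 fold change of counts, 3 SCC over 18 other tumors (horizontal axis), with red points at an adjusted p under 0.05, blue bars at list medians and a dashed line at the median of all tested genes (-0.15). The 4 squamous list medians (0.67 to 2.70) lie to the right of the dashed line, and the luminal (-0.82) and myoepithelial (-0.89) medians to the left.

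Keratins separated N-1 from the SCC tumors. *Krt5* and *Krt14*, the basal pair, were 2875 to 6276 and 1999 to 9516 CPM in SCC, 1255 and 868 CPM in N-1, and 1608 and 2083 CPM in R-12. *Krt1* and *Krt10*, the pair of cornifying epidermis, were 45.6 and 285 CPM in N-1 but at most 1.92 and 2.21 CPM in any SCC. Of 10 keratins tested 2 were called higher in SCC, *Krt16* (352 to 4774 CPM, and at most 164 elsewhere) and *Krt6b* (144 to 1707 CPM, and at most 112 elsewhere), both named after their values were seen. *Krt6b* met the filter only through the SCC tumors. Of the 8 keratins that met it without them 1 was called higher, against 5.04% of all such genes. The basal pair did not pass in the SCC comparison (adjusted p = 0.087 and 0.060, edgeR).

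Markers of other cell types gave these values beside the members. Over all tested genes 5.23% were called higher in SCC and 2.9% lower. The summed luminal list was 1150 to 3029 CPM in SCC and 961 to 5721 in the 18 others, with *Epcam* at 305 to 564 CPM in SCC, and 1 of 10 genes, *Kit*, fell. The myoepithelial sum was 131 to 298 CPM in SCC and 66.2 to 465 elsewhere, with *Acta2* at 111 ± 63.8 against 88.3 ± 47.7 CPM, and 1 of 8, *Mylk*, fell. The sum of 14 hair follicle genes was 182 to 453 CPM in SCC, mostly *Padi3* (168 to 425 CPM), with a median of 3.82 CPM elsewhere, R-12 at 103 and N-9 at 491, the last mostly *Krt27* (450 CPM). Of 4 tested, 1 was called higher, *Padi3*. The sebaceous sum was 17.8 to 78.3 CPM in SCC and 704 in N-1, where *Krt79* made up 699, and 1 of 4, *Scd3*, fell. Fibroblast genes summed to 2220 to 11306 CPM in SCC and 254 to 7875 elsewhere (0 of 7 called, with *Col1a1* at 3108 ± 2587 and *Col3a1* at 1031 ± 802 CPM in SCC). Leukocyte genes summed to 264 to 753 CPM in SCC and 117 to 491 elsewhere, with 2 of 6 called higher, *S100a8* and *S100a9*, which keratinocytes also make, and with *Ptprc* and *Csf1r* at 84.9 ± 28.5 and 106 ± 20.1 CPM in SCC. Melanocyte genes (Pmel, *Mlana*) summed to at most 2.39 CPM in any tumor. Adipocyte (Cfd, *Fabp4*) and skeletal muscle (Acta1, *Myh4*) sums peaked in N-17, at 585 and 4238 CPM, against at most 66.9 and 105 CPM in SCC. The part of any of these in the members' levels was not tested.

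The genes next to the members were also read, where 5.23% of all tested genes were called higher in SCC and 2.9% lower. Within 1 Mb of *Ivl*, in the epidermal differentiation complex, 12 of 53 genes were tested and 3 were called higher in SCC. These were *Ivl* and *Sprr1a*, both members, and *S100a11*. The 8 genes there on no list had a median log2 difference of 0.97, against -0.15 over all tested genes, and 1 of them was called higher. Within 0.5 Mb of *Dsg3*, 2 of 12 tested genes were called higher (Dsg3 and *Dsc2*) and 1 lower (B4galt6), and the 5 on no list had a median of -0.17. Within 0.1 Mb of *Krtdap* none of 7 was called.

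The 10 tested genes outside the lists that tracked the members most closely were ranked by Spearman's correlation with the mean of the 10 scaled members over 21 tumors. They were *Pitpnm3* (0.94), *Tmprss11e* (0.94), *Slc25a48*, *Col17a1*, *Ltb4r2* (0.93 each), *Aqp3* (0.92), *Syt8* (0.92), *Fat2* (0.91), *Adgrf4* and *Defb1* (0.91 each). *Col17a1* encodes a collagen of hemidesmosomes and *Aqp3* the glycerol channel of basal keratinocytes. *Col17a1* averaged 2227 CPM in SCC and 101 elsewhere, and *Aqp3* 301 and 6.70 CPM. Over these points, which share mice and the same 3 SCC tumors, the same correlation of single members with their own mean ran from 0.53 (Sprr3) to 0.89 (Dsg3).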

How the data were processed

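The 21 tumors were sequenced as total RNA after ribosomal depletion, as paired reads. Per the labels and the study's methods, the authors trimmed reads with Trim Galore 0.5.0, checked them with FastQC 0.11.5, aligned them to GRCm38.p6 with STAR 2.6.0c and made the deposited gene counts with HTSeq 0.6.1p2, which kept uniquely mapped reads and discarded reads on more than 1 gene. The strand setting and annotation release are not given in the sources used here. The authors also deposited FPKM values, which were used only to compare levels between genes. Columns of the authors' own comparisons (fold changes and p-values) were not used.

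Counts were fitted with edgeR 4.0.16 in R 4.3.3 (TMM, filterByExpr by cohort, quasi-likelihood test, 19315 genes, Benjamini-Hochberg over all of them, threshold 0.05). RhoC tumors were compared with controls, and SCC with other tumors, with histology from the study's list and not the labels. Single values were tested by exact 2-sided permutation of mean log2 CPM (prior count 2). Named genes were the 10 members, the 5 genes of smallest p in each of 4 squamous lists (1 of them is not reported here), Krt5, Krt14, Krt1 and Krt10, the 2 most abundant genes of each marker list, the 10 genes most like the members, and called neighbors. Jup was singled out after its values were seen. The members and lists were chosen with earlier results of these data known. Alternatives were DESeq2 1.42.0, limma 3.58.1 (voom with mouse as a random effect), other filters and scalings, summed or blocked mice and each tumor left out. Fits were tested on simulated data. TMM factors were 0.836 to 1.20, and none of 210 tumor pairs held identical counts. Tumors of 1 mouse were treated as separate samples, so p-values measure the spread between tumors. Intervals of counting error are small at this depth, where 3 reads are 0.0298 to 0.0634 CPM.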

Additional observations from a re-analysis of the deposited data

Results flagged for a closer look

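In 9 of 18 sets of 9 tumors (each member in controls and in RhoC tumors other than SCC, where it had counts), 1 tumor stood apart from the rest by Dixon's test on CPM. On the log2 scale none did. Chance alone gives about 1 in 20 where values are normally distributed, which CPM here are not, so the 9 are not read against that rate. Among controls the tumor was N-1 each time, with Trp63 at 415 CPM (next, N-9 at 97.3), Ivl at 3.99 CPM (N-9, 0.812), Sprr1a at 128 CPM (N-9, 13.3), Dsg3 at 844 CPM (N-15, 295), Dsc3 at 272 CPM (N-9, 43.9) and Sbsn at 66.8 CPM (N-9, 26.2). Among RhoC tumors other than SCC it was R-12 for Dsg3 at 867 CPM (R-15, 72.6) and Ivl at 0.865 CPM (R-15, 0.175), and R-15 for Sprr1a at 17.04 CPM (R-18, 5.59).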

How the results depend on the processing

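No paired analysis was possible because of the cohort contrast's design, in which tumors with the same number came from different mice. SCC were compared within mice. In the cohort comparison 0 members were called, and 1 (Sbsn) without the 3 SCC tumors. Without those tumors the log2 differences were -0.16 for Trp63, -2.28 for Sprr1a, -0.41 for Dsg3, -3.50 for Dsc3 and -0.051 for Pkp1. Voom gave -0.90 for Ivl, -0.35 for Dsg3 and -0.88 for Pkp1. Dsc3 was -0.12 without mouse P497 and -0.85 without N-1 and the SCC tumors, a choice made after seeing the data. Sbsn was 0.29 without N-1, and leaving out each tumor in turn it ranged from -1.31 to 0.29. Members with an exact permutation p under 0.05 numbered 0, 1 without the SCC tumors, and 0 to 1 with each tumor left out (1 without R-6). DESeq2 called 4 genes of the 4 squamous lists, where the edgeR fit called 0. It called 6.24% of all genes.

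In the SCC comparison 3 members were called. The number was 1 with library size in place of TMM, 0 with the tumors of mouse P497 summed by histology, 6 with voom, 6 without N-1 and 1 without tumors of unrecorded histology. It was 0 to 6 with each tumor left out, lowest without R-6 or R-13. Of all genes 1010 of 19315 were called higher in the main fit, 713 with library size and 1722 with voom. They were 494 of 19175 with mouse P497 summed, 1048 of 19495 without N-1 and 799 of 19114 without tumors of unrecorded histology. Of the list genes 24 were called, 15 with mouse P497 summed, 41 with voom, and 3 (without R-6) to 32 (without N-1) with each tumor left out. In either direction 1570 of all genes were called in the main fit, 583 with mouse P497 summed and 2868 with voom. They were 209 without R-6 and 1630 without N-1. No member changed direction in this comparison under any setting. The cause of these changes was not tested. Sprr3 rested on few reads, at most 8 in any tumor.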
